A study of Mus musculus with 6 samples.

Results

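The receptors of the common gamma chain cytokines are encoded by 8 genes of the deposited table: Il2ra, Il2rb, Il2rg, Il7r, Il4ra, Il21r, Il15ra and Il9r. They were chosen by gene symbol as the receptor chains of this cytokine family, and all 8 were found among the 15944 genes listed. Bulk RNA was sequenced from splenic Tregs of C57BL/6 mice, the Foxp3-expressing CD4+ T cells that hold immune responses in check, which were enriched for CD4 and then sorted by flow cytometry. RORγt+ Tregs were sorted as CD3+ CD4+ cells positive for an RFP reporter of Foxp3 and a GFP reporter of the transcription factor RORγt (3 libraries). CCR6+ RORγt- Tregs carried the same 2 reporters, were positive for Foxp3-RFP, negative for RORγt-GFP and stained for the chemokine receptor CCR6 (3 libraries). The labels name no CCR6 gate for the RORγt+ sort, so the sorts as labelled differed in 2 criteria, RORγt-GFP and CCR6. They do not say whether CCR6 was disregarded in the RORγt+ sort. The labels used here state neither the age and sex of the mice nor which animals gave which library. The p-values therefore measure variation between libraries, part or all of which may be technical.

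The common gamma chain, encoded by Il2rg, is the subunit that IL-2, IL-4, IL-7, IL-9, IL-15 and IL-21 receptors have in common, and it signals through the kinase JAK3. A second signalling chain binds JAK1: a private chain for IL-4, IL-7, IL-9 and IL-21, and the beta chain Il2rb for both IL-2 and IL-15. IL-2 and IL-15 each have in addition an alpha chain, Il2ra (CD25) or Il15ra, that raises affinity for its ligand. Tregs depend on IL-2 and are known for high CD25 and for low IL-7 receptor on their surface relative to conventional T cells.

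The members fall into a pair of structural classes, and the coding sequences show which gene is in which. Signalling chains of the type I cytokine receptor family carry a tryptophan-serine box close to the membrane. The box was searched as the codon TGG, a serine codon, any codon, TGG and a serine codon, in frame, in the GENCODE M21 transcript with the longest coding sequence of each gene. It was present once in each of 6 members and in 0.326% of 21493 coding genes. The 6 boxes are shown 5′ to 3′ on the coding strand, with the 5 codons of the box in capitals.
Il2rb (chromosome 15): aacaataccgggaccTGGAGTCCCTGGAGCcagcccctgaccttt
Il2rg (chromosome X): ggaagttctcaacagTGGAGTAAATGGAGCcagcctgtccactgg
Il7r (chromosome 15): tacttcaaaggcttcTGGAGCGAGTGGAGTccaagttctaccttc
Il4ra (chromosome 7): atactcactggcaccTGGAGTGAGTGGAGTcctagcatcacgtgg
Il21r (chromosome 7): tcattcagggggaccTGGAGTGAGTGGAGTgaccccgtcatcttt
Il9r (chromosome 11): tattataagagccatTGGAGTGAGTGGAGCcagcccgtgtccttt
The middle codon was GAG in Il7r, Il4ra, Il21r and Il9r, CCC in Il2rb and AAA in Il2rg. Il2ra and Il15ra, both on chromosome 2, held no such box. Their proteins are known as short-tailed ligand-binding alpha chains built on sushi domains.

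Column totals lay between 11325902 and 11890770 normalized counts, with an approximate depth of 9200000 to 14400000 reads. RORγt+ replicate 3 stood apart from the rest. It listed 1247 genes at 0, and the other 5 libraries listed 438 to 638. On the log2 scale its correlations to the other libraries were 0.932 to 0.938, against 0.947 to 0.967 among the other 5. In 3 members (Il2ra, Il7r and Il9r) it was the lowest RORγt+ library and in the other 5 members the highest, and it was at an end of its group in 87.0% of genes with a mean of at least 100. Fold changes of the members are therefore given with and without it. Foxp3 averaged 11505 normalized counts in RORγt+ Tregs and 9963 in CCR6+ RORγt- Tregs, Cd4 averaged 10037 in RORγt+ Tregs and 10729 in CCR6+ RORγt- Tregs, and Cd3e averaged 6586 in RORγt+ Tregs and 6894 in CCR6+ RORγt- Tregs, so the defining genes of the labelled cell type were abundant in both groups. Ikzf2, a marker of many thymus-derived Tregs, had 6358, 6181 and 1435 in RORγt+ replicates 1, 2 and 3, against 4784, 6205 and 7969 in CCR6+ RORγt- replicates 1, 2 and 3, so RORγt+ replicate 3 was lowest in that marker.

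RORγt+ Tregs had higher values of Il2ra and Il9r in every library than any CCR6+ RORγt- library, but neither these nor the other 6 members passed the test. In limma with a mean-variance trend, 0 of the 8 members had a Benjamini-Hochberg adjusted p under 0.05, where 0.564% of all genes did. Il2ra and Il9r had an unadjusted p under 0.05 and were higher in RORγt+ Tregs, as were 4.80% of all genes, and 10.9% passed in either direction. The groups did not overlap in these 2 members, as in 18.1% of all genes, of which 8.31% were higher and 9.81% lower in RORγt+ Tregs. The log2 fold change (RORγt+ minus CCR6+ RORγt-, on log2(value + 1)) was positive in 6 members and negative in 2. Its median was 0.10 over the members and −0.011 over all genes. With each library left out in turn, 0 members were called in all 6 fits, although 174 of all genes (1.09%) were called without RORγt+ replicate 3. With the replicate number as a block, 0 members and 0.00627% of all genes were called. A fit with limma's array weights, which called 358 genes (2.25%), called 1 member, Il9r (adjusted p = 0.0497, against 0.0824 to 0.644 with a library left out).

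**Figure D1:**
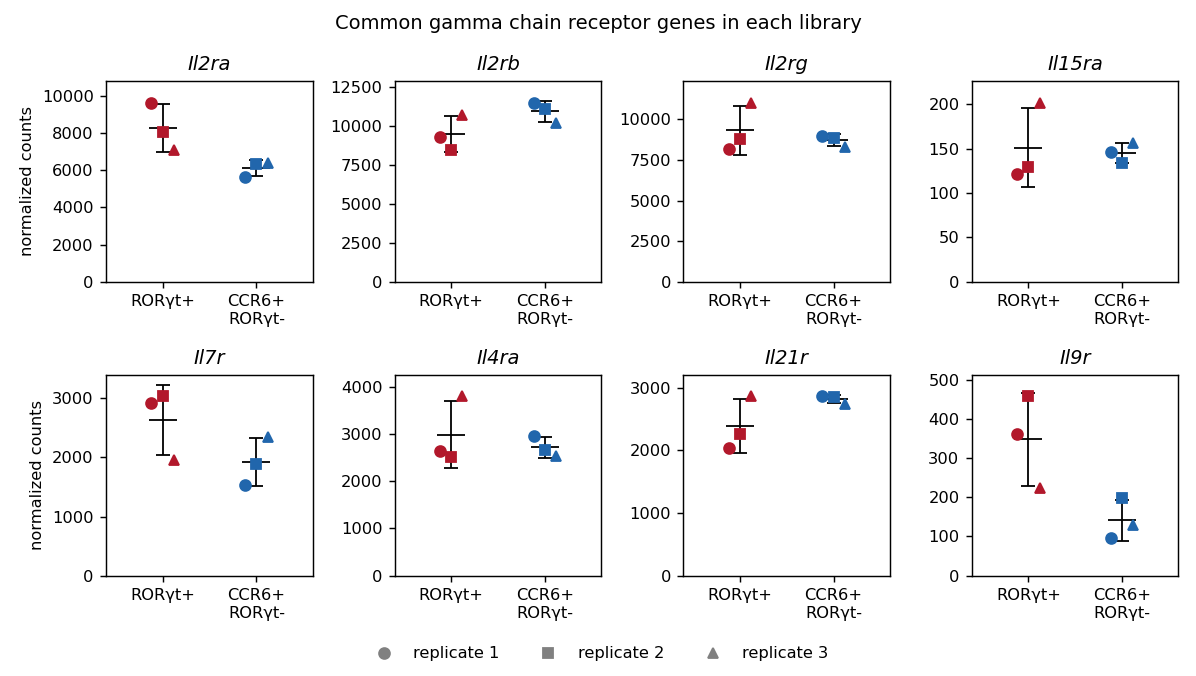
Normalized counts of the 8 receptor genes in each library (y axis, from 0), RORγt+ libraries left and CCR6+ RORγt- libraries right in each panel. Symbols mark the replicate number, and black bars show the mean and SD of 3 libraries. Only Il2ra and Il9r have all 3 RORγt+ points above all 3 CCR6+ RORγt- points.

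The IL-2 receptor is built from Il2ra, Il2rb and Il2rg. Il2ra (chr2:11642807-11693193, GRCm38, plus strand) encodes CD25, the alpha chain that gives the receptor its high affinity. It had 9625, 8021 and 7070 normalized counts in RORγt+ replicates 1, 2 and 3, against 5609, 6333 and 6396 in CCR6+ RORγt- replicates 1, 2 and 3. The lowest RORγt+ library, replicate 3, lay above the highest CCR6+ RORγt- library by less than the SD of the RORγt+ group. The means were 8239 ± 1291 in RORγt+ Tregs and 6113 ± 437 in CCR6+ RORγt- Tregs (SD, n = 3 each). On the log2 scale the difference was 0.42 ± 0.14 (SE), with a 95% confidence interval of 0.085 to 0.76 before adjustment and an adjusted p of 0.349. Without RORγt+ replicate 3 it was 0.53 ± 0.11 (adjusted p = 0.0927). In bulk RNA, more cells of a type and more RNA per cell cannot be told apart.

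Il2rb (chr15:78479256-78495271, minus strand), the signalling chain shared with IL-15, pointed the other way. It had 9273, 8448 and 10710 normalized counts in RORγt+ Tregs, against 11478, 11073 and 10165 in CCR6+ RORγt- Tregs. The groups overlapped through RORγt+ replicate 3 alone, which lay above CCR6+ RORγt- replicate 3. Its fitted log2 difference was −0.21 ± 0.13 (SE), with an adjusted p of 0.649. Leaving out RORγt+ replicate 3 gave −0.30 ± 0.091 and an adjusted p of 0.183.

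Il2rg (chrX:101264378-101268255, minus strand), the chain all members' receptors share, had 8157, 8754 and 11024 normalized counts in RORγt+ Tregs, against 8993, 8827 and 8306 in CCR6+ RORγt- Tregs. RORγt+ replicate 3 was the highest library, replicate 1 was the lowest, and replicate 2 lay within the CCR6+ RORγt- range. The fold change did not differ from 0 beyond the spread (log2 0.085 ± 0.14, SE, adjusted p = 0.902), and its sign turned to −0.043 without RORγt+ replicate 3. The 95% interval before adjustment, −0.24 to 0.41, or 0.845 to 1.33 times, rests on the spread between libraries and includes RORγt+ replicate 3. An overlapping gene model, Gm20489, holds 28.7% of the 31-base windows of Il2rg transcripts. It was listed at 12.6 to 21.2 normalized counts, so reads placed on it were few beside those of Il2rg.

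Il15ra (chr2:11705290-11734317, plus strand) is the alpha chain that presents IL-15. It had 121, 130 and 202 normalized counts in RORγt+ Tregs, against 146, 133 and 156 in CCR6+ RORγt- Tregs. The RORγt+ libraries stood on both sides of the other group, with replicate 3 highest. The log2 difference came to 0.021 ± 0.24 (SE), with an adjusted p of 0.988. It turned to −0.21 when RORγt+ replicate 3 was left out (adjusted p = 0.557).

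Il7r (chr15:9505788-9530176, minus strand) encodes CD127, the private chain for IL-7, a cytokine of T cell survival. It had 2921, 3035 and 1961 normalized counts in RORγt+ Tregs, against 1542, 1894 and 2345 in CCR6+ RORγt- Tregs. RORγt+ replicates 1 and 2 were above every CCR6+ RORγt- library, and replicate 3 lay within their range. The means were 2639 ± 590 in RORγt+ Tregs and 1927 ± 402 in CCR6+ RORγt- Tregs (SD, n = 3 each). For Il7r the fit gave a log2 fold change of 0.45 ± 0.22 (SE), at an adjusted p of 0.54. The same fit on 5 libraries, without RORγt+ replicate 3, gave 0.65 ± 0.17 at an adjusted p of 0.148. The spread between libraries of CCR6+ RORγt- Tregs was also wide for this gene, at 20.9% of the mean, against 2.38% for Il21r.

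Il9r (chr11:32187541-32200279, minus strand), the private chain for IL-9, had the largest log2 fold change among the 8 members in the fit to all 6 libraries. It had 362, 458 and 223 normalized counts in RORγt+ Tregs, against 97.0, 199 and 129 in CCR6+ RORγt- Tregs. RORγt+ replicate 3 lay just above CCR6+ RORγt- replicate 2, and the other 2 RORγt+ libraries were above every CCR6+ RORγt- library by a wider margin. The means were 348 ± 118 in RORγt+ Tregs and 142 ± 52.1 in CCR6+ RORγt- Tregs (SD, n = 3 each), a ratio of 2.46. This was a log2 fold change of 1.29 ± 0.35 (SE, unadjusted p = 0.00679, limma adjusted p = 0.231), with a 95% interval of 0.48 to 2.11 before adjustment. Without RORγt+ replicate 3 it was 1.58 ± 0.31 (adjusted p = 0.0824).

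Il4ra (chr7:125552120-125579474, plus strand) is the private chain for IL-4 and also pairs with Il13ra1 for IL-13. It had 2635, 2521 and 3799 normalized counts in RORγt+ Tregs, against 2965, 2660 and 2532 in CCR6+ RORγt- Tregs. RORγt+ replicate 3 was the highest library and the other 5 overlapped. Il4ra differed by 0.11 ± 0.18 on the log2 scale (SE), at an adjusted p of 0.896, and by −0.074 when RORγt+ replicate 3 was left out. A gene on the other strand, Gm44876, holds 8.86% of the Il4ra windows and is not analysed here.

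Il21r (chr7:125603429-125633570, plus strand), downstream of Il4ra on the same chromosome, is the private chain for IL-21, a product of follicular and type 17 helper T cells. It had 2033, 2260 and 2865 normalized counts in RORγt+ Tregs, against 2863, 2850 and 2741 in CCR6+ RORγt- Tregs. The CCR6+ RORγt- libraries lay close together, and RORγt+ replicates 1 and 2 were below them while replicate 3 was level with the highest. Il21r differed by −0.25 ± 0.15 on the log2 scale (SE), at an adjusted p of 0.626. Without RORγt+ replicate 3 the difference was −0.39 ± 0.088, at an adjusted p of 0.103.

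**Figure D2:**
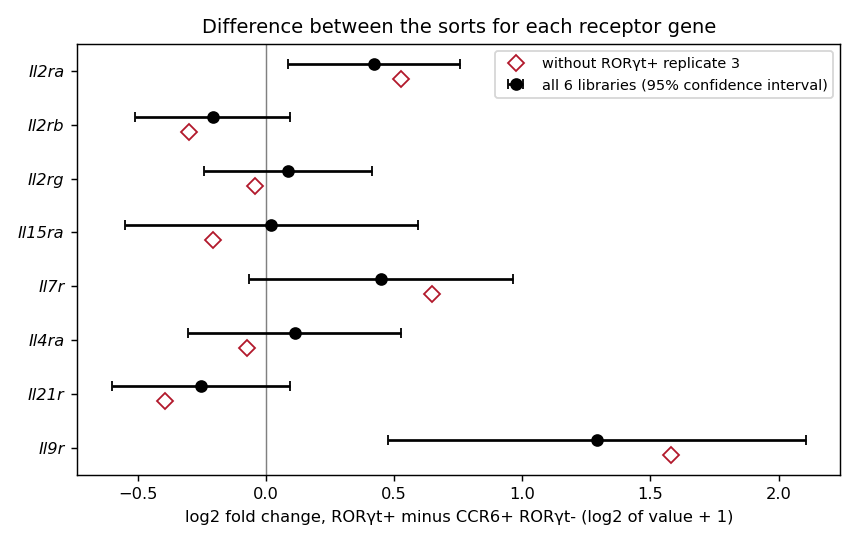
Log2 fold change of each receptor gene, RORγt+ minus CCR6+ RORγt- (x axis, log2 of value + 1). Filled circles with 95% confidence intervals, not adjusted for the number of genes, use all 6 libraries, and open diamonds leave out RORγt+ replicate 3. Il9r lies farthest from 0 (1.29), and the diamonds of Il2rg, Il4ra and Il15ra fall below 0.

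Without RORγt+ replicate 3, 5 of the 8 members had an unadjusted p under 0.05, where 17.7% of all genes did, and the groups did not overlap in 6 members, where they did not in 36.9% of all genes. Of those 5, Il2ra, Il7r and Il9r had positive log2 fold changes and Il2rb and Il21r negative ones. None had an adjusted p under 0.05 in that fit. The shares of all genes, here and in the fit to all 6 libraries, cover genes of every level. They were not matched to the levels of the members, most of which are high, so no excess in the members can be read from them.

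Levels were compared between members per kilobase of the longest coding transcript. Il2rg was highest, at 5576 ± 906 normalized counts per kb in RORγt+ Tregs and 5215 ± 215 in CCR6+ RORγt- Tregs (SD, n = 3 each). Il2rb followed with 2260 ± 273 per kb in RORγt+ Tregs and 2600 ± 160 in CCR6+ RORγt- Tregs, and then Il2ra with 1867 ± 293 in RORγt+ Tregs and 1385 ± 99.1 in CCR6+ RORγt- Tregs. Il2rb and Il2ra overlapped in RORγt+ Tregs and did not in CCR6+ RORγt- Tregs.

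Il21r came next in that order (955 ± 172 per kb in RORγt+ Tregs, 1128 ± 26.9 in CCR6+ RORγt- Tregs). Il7r stood at 746 ± 167 per kb in RORγt+ Tregs and 544 ± 114 in CCR6+ RORγt- Tregs. Il4ra stood at 568 ± 135 per kb in RORγt+ Tregs and 517 ± 42.3 in CCR6+ RORγt- Tregs, and these 2 neighbours overlapped in both groups. Il21r and Il7r overlapped in RORγt+ Tregs only. Il15ra (77.9 ± 22.9 in RORγt+ Tregs, 74.9 ± 5.83 in CCR6+ RORγt- Tregs) and Il9r (77.6 ± 26.3 in RORγt+ Tregs, 31.6 ± 11.6 in CCR6+ RORγt- Tregs) were lowest, and they overlapped in RORγt+ Tregs and not in CCR6+ RORγt- Tregs. With the mean length of the coding transcripts instead, Il4ra moved above Il21r and Il7r, at 1449 per kb in RORγt+ Tregs and 1320 in CCR6+ RORγt- Tregs. Il9r then also stood above Il15ra in RORγt+ Tregs (134 against 126 per kb), but not in CCR6+ RORγt- Tregs (54.6 against 121). The longest coding transcript of Il9r has 4482 bases, but its transcript with the longest coding sequence has 1542. For Il15ra these lengths are 1936 and 1600 bases. The order of Il15ra and Il9r therefore depends on the transcript taken, in CCR6+ RORγt- Tregs as well. Summed, the 8 receptor genes made up 0.297% to 0.331% of the column total in RORγt+ Tregs and 0.276% to 0.296% in CCR6+ RORγt- libraries.

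**Figure D3:**
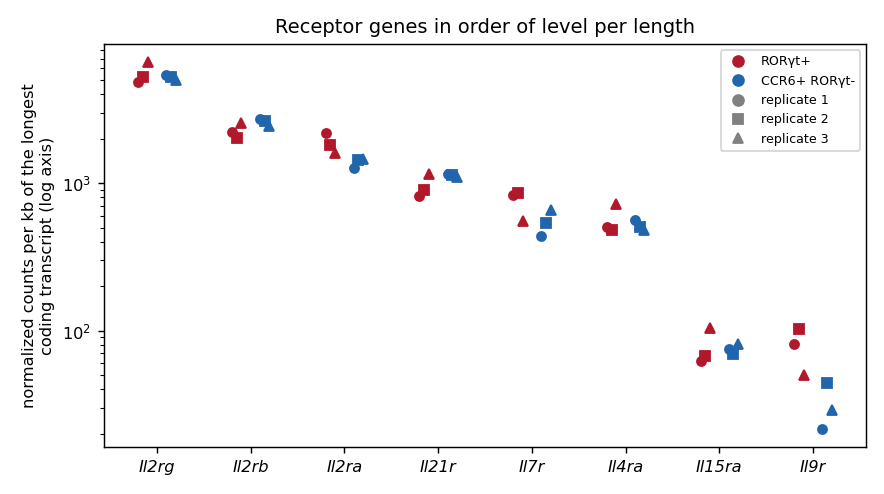
Normalized counts per kb of the longest coding transcript (y axis, logarithmic) of the 8 receptor genes in each library, RORγt+ points left of CCR6+ RORγt- points for each gene. Il2rg lies highest in both groups, and Il15ra and Il9r lie lowest.

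The ratio of one member to another within a library does not depend on how libraries were scaled. Relative to Il2rg, Il21r was lower in all 3 RORγt+ libraries than in any CCR6+ RORγt- library. The log2 ratio was −2.004, −1.95 and −1.94 in RORγt+ replicates 1, 2 and 3, against −1.65, −1.63 and −1.60 in CCR6+ RORγt- replicates 1, 2 and 3. RORγt+ replicate 3 was level with the other RORγt+ libraries here, although its Il21r and Il2rg values were both high. The groups' means differed by −0.34, where the SD within a group was 0.032 in RORγt+ Tregs and 0.026 in CCR6+ RORγt- Tregs. The exact two-sided permutation p was 0.1, the smallest that 3 against 3 allows, and 0.3 after adjustment over the 9 ratios computed.

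Il2rb was also lower relative to Il2rg, with log2 ratios of 0.18, −0.051 and −0.042 in RORγt+ Tregs, against 0.35, 0.33 and 0.29 in CCR6+ RORγt- Tregs. Relative to Il2ra, Il2rb had log2 ratios of −0.054, 0.075 and 0.60 in RORγt+ Tregs, against 1.03, 0.81 and 0.67 in CCR6+ RORγt- Tregs. Neither ratio overlapped between the groups, the mean differences were −0.29 and −0.63, and each had the smallest exact permutation p of 0.1 (0.3 adjusted). Without RORγt+ replicate 3, the differences were −0.35 for Il21r to Il2rg, −0.26 for Il2rb to Il2rg and −0.83 for Il2rb to Il2ra. Among all genes, the ratio to Il2rg did not overlap between groups in 18.0% and the ratio to Il2ra in 32.0%. The remaining 6 ratios overlapped. Il7r relative to Il2ra, the pair by which Tregs are often told from other T cells, had mean log2 ratios of −1.66 ± 0.23 in RORγt+ Tregs and −1.68 ± 0.21 in CCR6+ RORγt- Tregs (SD, n = 3 each, exact permutation p = 0.7). The difference lay between −0.10 and 0.14 with 1 library left out at a time, so its sign was not fixed.

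**Figure D4:**
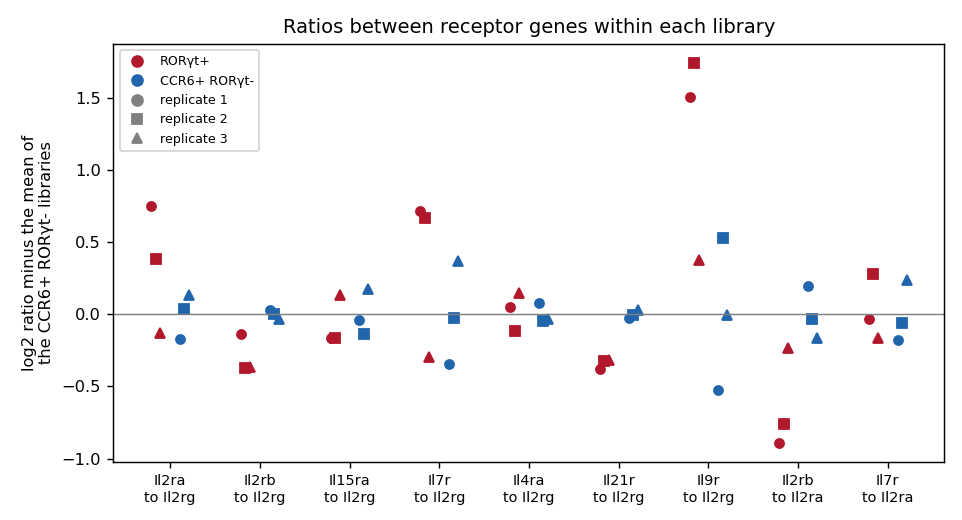
Log2 ratio of 2 receptor genes within each library, minus the mean of the CCR6+ RORγt- libraries (y axis), RORγt+ points left and CCR6+ RORγt- points right for each ratio. The ratios of Il2rb and Il21r to Il2rg and of Il2rb to Il2ra do not overlap between the groups.

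Other genes of the pathway were read from lists of genes with known roles. Of the ligands, Il4, Il7, Il15 and Il21 were in the table at group means of 0.65 to 15.5 normalized counts, and none passed the test (median log2 fold change −1.16). That median rests on 4 low genes, of which Il4, Il7 and Il15 were at 0 in RORγt+ replicate 3. Without RORγt+ replicate 3 the log2 fold changes were −1.59 for Il4, −1.12 for Il21, −0.31 for Il7 and 0.99 for Il15. Il21 averaged 9.43 ± 9.29 in RORγt+ Tregs and 15.5 ± 4.15 in CCR6+ RORγt- Tregs (SD, n = 3 each, adjusted p = 0.691). Il4 averaged 0.65 ± 1.13 in RORγt+ Tregs and 4.36 ± 1.57 in CCR6+ RORγt- Tregs (adjusted p = 0.417), and it was listed at 0 in RORγt+ replicates 1 and 3. Il7 had an adjusted p of 0.705. Of the chains that pair with members, Il13ra1 (adjusted p = 0.576) and Crlf2, which joins Il7r in the receptor for TSLP (449 ± 130 in RORγt+ Tregs, 517 ± 60.5 in CCR6+ RORγt- Tregs, adjusted p = 0.789), did not pass.

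None of the 7 kinases and STAT factors passed (median log2 fold change −0.11). Stat5a, which with Stat5b carries the IL-2 signal, had an adjusted p of 0.592, and Stat3, which carries the IL-21 signal, had an adjusted p of 0.693. Jak1 and Jak3, the kinases on the private and shared chains, had log2 fold changes of −0.14 and −0.029.

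Of 11 inhibitors of the pathway, Socs2 rose, none fell and 10 did not pass (median −0.11). Socs2, which is induced by STAT5, had 868, 819 and 840 normalized counts in RORγt+ Tregs, against 265, 370 and 298 in CCR6+ RORγt- Tregs. Every RORγt+ library was above every other, and replicate 3 did not stand apart (log2 fold change 1.45 ± 0.16, SE, adjusted p = 0.0157). With 1 library left out at a time, its call held in 1 of 6 fits, the one without RORγt+ replicate 3, and its adjusted p ran between 0.0221 and 0.111. Socs3 (0.57, adjusted p = 0.171), Socs5 (−0.77, adjusted p = 0.313) and Socs7 (−0.52, adjusted p = 0.37) did not pass. Cish, another STAT5-induced inhibitor, stood at 1922 ± 285 in RORγt+ Tregs and 1681 ± 197 in CCR6+ RORγt- Tregs (SD, n = 3 each, adjusted p = 0.746).

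Of 15 STAT5 targets and survival genes, Socs2 rose, Bcl6 fell and 13 did not pass (median 0.19). Bcl6 directs the follicular T cell program and is known to be repressed by IL-2 through STAT5. It had 294, 285 and 279 normalized counts in RORγt+ Tregs, against 603, 583 and 576 in CCR6+ RORγt- Tregs, so that replicates agreed closely in both groups (log2 fold change −1.04 ± 0.13, SE, adjusted p = 0.0224). Its call also held only without RORγt+ replicate 3 among those 6 fits (adjusted p between 0.0171 and 0.161). The kinase gene Pim1 had 2909, 3069 and 2788 in RORγt+ Tregs, against 1957, 2215 and 1873 in CCR6+ RORγt- Tregs (0.54 ± 0.12, adjusted p = 0.138). Lta and Pim3 (adjusted p = 0.548 and 0.57) did not pass.

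Il7r is known to be switched on by the resting-cell factor Foxo1. Of 9 resting T cell genes around Foxo1 and Klf2, none passed (median 0.12). The migration receptor S1pr1 (0.46, adjusted p = 0.249), the quiescence factor Klf2 (0.57, adjusted p = 0.32) and Tcf7 (−0.22, adjusted p = 0.671) had the lowest adjusted p-values. Of 22 other type I and II cytokine receptors measured, Il23r, a subunit of the IL-23 receptor, rose and 21 did not pass (median 0.14). It averaged 16.1 ± 2.48 normalized counts in RORγt+ Tregs and 0.277 ± 0.479 in CCR6+ RORγt- Tregs (SD, n = 3 each, adjusted p = 0.0361), and no fit on 5 libraries called it (adjusted p between 0.0599 and 0.169). Ifnar2, Il12rb1 and Ifngr2 did not pass (adjusted p = 0.343, 0.354 and 0.364).

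Several members are expressed by other cells that a sort can carry along. Markers of γδ and innate type 17 cells, which express Il7r, summed to 196 to 272 normalized counts over 7 measured genes in RORγt+ libraries and 54.5 to 80.4 in CCR6+ RORγt- libraries, so they moved with the group. Of these, Cd163l1, Blk, Zbtb16, Il23r and 5830411N06Rik were at 0 in at least 1 library. Among them, 5830411N06Rik had 65.0, 49.8 and 122.7 normalized counts in RORγt+ replicates 1, 2 and 3, against 0, 0.62 and 0 in CCR6+ RORγt- replicates 1, 2 and 3, and had the widest gap between group means in this list. Trdc stood at 89.2 to 109 in RORγt+ libraries and 51.5 to 71.5 in CCR6+ RORγt- libraries. Il23r of this list was also read above among the other cytokine receptors, and the groups were sorted on RORγt itself. Whether carried-along cells or the sorted Tregs gave these values was not tested. NK cell markers, whose cells express Il2rb, summed to 100 to 131 in RORγt+ libraries and 87.3 to 103 in CCR6+ RORγt- libraries, with 5 of 7 at 0 in at least 1 library. B cell markers, whose cells express Il4ra and Il21r, summed to 358 to 639 in RORγt+ libraries and 351 to 599 in CCR6+ RORγt- libraries over 7 genes, with Fcer2a at 0 in at least 1 library. None of the 5 markers of mast cells and basophils was among the genes analysed here.

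Il1rl1, Il17rb, Rora, Gata3 and Areg mark group 2 innate lymphoid cells and are also expressed by Tregs. They summed to 4305, 5012 and 2264 normalized counts in RORγt+ replicates 1, 2 and 3, against 2364, 2633 and 2885 in CCR6+ RORγt- replicates 1, 2 and 3. RORγt+ replicate 3 was low in this sum, as it was in Il7r and Il9r. The markers did not move together. Il1rl1 (mean 1022 in RORγt+ Tregs and 353 in CCR6+ RORγt- Tregs), Rora (1361 and 656) and Il17rb (23.3 and 14.0) averaged higher in RORγt+ Tregs. Gata3 was lower in each RORγt+ library, at 1432, 1458 and 1435, against 1587, 1487 and 1658 in CCR6+ RORγt- Tregs. Areg also averaged lower (12.3 in RORγt+ Tregs and 26.7 in CCR6+ RORγt- Tregs). Markers of CD8 T cells, whose cells also express Il2rb and Il7r, summed to 260 to 284 in RORγt+ libraries and 400 to 624 in CCR6+ RORγt- libraries over 5 genes, with Gzmk at 0 in at least 1 library. Ccl5 carried most of that gap (mean 97.1 in RORγt+ Tregs and 315 in CCR6+ RORγt- Tregs). Cd8b1 (117 in RORγt+ Tregs and 108 in CCR6+ RORγt- Tregs) and Eomes (42.3 in RORγt+ Tregs and 36.6 in CCR6+ RORγt- Tregs) lay the other way, and Cd8a stood at 11.8 to 19.9 in RORγt+ libraries, against 2.82, 68.7 and 3.95 in CCR6+ RORγt- replicates 1, 2 and 3. Plasma cell markers summed to 1173 to 1252 in RORγt+ libraries and 979 to 1102 in CCR6+ RORγt- libraries (4 of 5 measured). Most of that sum was Xbp1 (mean 817 in RORγt+ Tregs and 650 in CCR6+ RORγt- Tregs) and Prdm1, which lay the other way (348 in RORγt+ Tregs and 365 in CCR6+ RORγt- Tregs). Jchain (31.4 in RORγt+ Tregs and 12.8 in CCR6+ RORγt- Tregs) and Sdc1 (10.6 in RORγt+ Tregs and 3.31 in CCR6+ RORγt- Tregs) added little. Monocyte and macrophage markers summed to 58.5 to 146 in RORγt+ libraries and 37.9 to 59.1 in CCR6+ RORγt- libraries (4 of 7 measured). Dendritic cell markers summed to 13.0 to 41.5 in RORγt+ libraries and 39.3 to 47.5 in CCR6+ RORγt- libraries (4 of 6 measured), with Itgax, Xcr1 and Siglech at 0 in at least 1 library. The neutrophil marker S100a9 reached 17.8 in 1 RORγt+ library and was at 0 in every CCR6+ RORγt- library. The part of these other cells in the members' values was not tested.

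The promoters of 7 of the members were found in the RefSeq table of build GRCm38.p6 (250 bases before to 50 after the start, with 2 starts for Il15ra). They were searched on both strands for the STAT motif TTCNNNGAA, the half-site AGGTCA bound by ROR factors, the Foxo motif TGTTTAC and the AP-1 motif TGANTCA. These occur in 8.30%, 16.3%, 3.65% and 7.81% of all 32851 such promoters. Matches in Il7r and Il21r are shown because these genes bear on the IL-7 and IL-21 comparisons above, with the matched bases in capitals.
Il7r, STAT motif, chr15:9529990-9530038, minus strand: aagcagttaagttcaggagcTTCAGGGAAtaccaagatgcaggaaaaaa
Il21r, ROR half-site, chr7:125603282-125603327, plus strand: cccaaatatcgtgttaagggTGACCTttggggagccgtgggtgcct
Il21r, Foxo motif, chr7:125603371-125603417, plus strand: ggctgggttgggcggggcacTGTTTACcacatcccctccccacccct
The matches begin 142, 127 and 38 bases before the RefSeq start, and that of the half-site is on the opposite strand. For Il7r the GENCODE M21 span given above begins at 9530176 on the minus strand. By that annotation the Il7r match lies after the start, within the gene. One start of Il15ra held an AP-1 match. The windows of Il2ra, Il2rg, Il4ra and Il9r held none of these letters. A match describes the sequence and was not tested as a site.

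Genes with the most similar pattern over the 6 libraries were looked up among 9055 other genes with a mean of at least 100, by Pearson's r on the log2 scale. For Il9r they were Itga2, an integrin subunit (r = 0.993, with 287 normalized counts in RORγt+ Tregs and 101 in CCR6+ RORγt- Tregs), and Klrg1, an inhibitory receptor of effector Tregs (r = 0.985, with 597 in RORγt+ Tregs and 313 in CCR6+ RORγt- Tregs). For Il7r they were Rb1 (r = 0.995) and Zfp760 (r = 0.986), for Il2ra Snx32 and Rnf115 (both 0.983), for Il2rb Trbv16 (0.993) and Rpl3 (0.989), and for Il21r P4hb (0.994) and Ank (0.991). For Il2rg they were Ormdl2 (0.999) and Elac2 (0.998), for Il4ra Tle5 (0.998) and Mavs (0.995), and for Il15ra Ttc27 (0.995) and Ttll1 (0.994). The number of genes with r over 0.95 ran from 18 for Il9r to 305 for Il2rg. All of these correlations use the same 6 libraries, with RORγt+ replicate 3 apart from the rest, so the values are descriptions only.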

How the data were processed

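The submitters' processing notes list Salmon 1.2.0, DESeq2 (no version) and GRCm38 and give no role for any of them. The deposited values are a signal for each gene in each library, in normalized counts with 2 decimals. Between 50.5% and 69.9% of low values lay within 0.1 of a whole multiple of the value of 1 read, so reads were not recovered, count tests were not run, and depths are approximate. Values were fitted as log2(value + 1) with limma 3.58.1 in R 4.3.3 (trend, two-sided, Benjamini-Hochberg over 15944 genes, threshold 0.05). This understates changes of low genes. The fit was checked on simulated data. The simulated libraries were drawn alike, with none apart as RORγt+ replicate 3 is, so the check does not cover that case. Of 1842 IDs without a symbol, 1789 were named from GENCODE M21, which also gave positions and lengths. Ratios were tested with exact permutation (scipy 1.17.1). All 8 members, genes past the threshold in each list and the 3 next by adjusted p, and for each member the 2 genes most like it were named by rule, and Jak1, Jak3 and Cish were added after their values were seen. A result that this rule covers is not reported here. Members and lists were chosen with earlier results of these data known.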

Additional observations from a re-analysis of the deposited data

How the results depend on the processing

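Array weights were the 1 setting that called a member (Il9r, log2 fold change 1.47), with 358 genes called in all, and every other setting called 0 members. Pseudocounts of 0.1 and 5, upper-quartile and total scaling, quantile normalization, filters on low values and robust variances gave 84 to 103 called genes, against 90. Leaving out 1 library gave 4 to 174 calls over all genes (4, 4 and 174 without RORγt+ replicates 1, 2 and 3, and 8, 10 and 7 without CCR6+ RORγt- replicates 1, 2 and 3). The cause was not tested. The replicate block left 1 gene and 0 members called. Deviations from the group mean correlated at −0.11, −0.022 and −0.18 between libraries of the same number, so the numbers were not taken as pairs, and none of the libraries was closest to the one of its own number. Signs turned for Il2rg (−0.013 with array weights, −0.043 to 0.17 with a library left out), Il4ra (−0.030, −0.074 to 0.22) and Il15ra (−0.15, −0.21 to 0.16), and for the log2 ratios, with a library left out, of Il4ra to Il2rg (−0.032 to 0.098), Il15ra to Il2rg (−0.16 to 0.023) and Il7r to Il2ra (−0.10 to 0.14). The differences of Il21r (−0.35 to −0.32) and Il2rb (−0.37 to −0.25) relative to Il2rg kept their sign with each library left out. Calls in the lists of inhibitors, STAT5 targets and other receptors were lost in 5, 5 and 6 of the 6 fits on 5 libraries. Tests on counts, with TMM or DESeq2 size factors, were not run because reads were not recovered. Il4, Il7 and Il15, and Il23r in CCR6+ RORγt- Tregs, were at 0 in at least 1 library and low in the others, which limits their precision.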
